A study of Homo sapiens with 6 samples.

Results

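Genes of glycolysis and of the cell's response to low oxygen were followed in U87 cells, an established human glioblastoma line, with and without silencing of Caspase-8. The 36 genes were taken by symbol from a fixed list, all 36 were found among the 23290 genes of the deposited table, and all 36 reached the minimum mean of 1 FPKM that left 11598 genes for testing. FPKM is the number of fragments scaled to transcript length and to the mapped fragments of the library. The control group (shCTR, 3 libraries) had been infected with a retrovirus carrying a scrambled hairpin, and the shC8 group (3 libraries) with a retrovirus carrying a hairpin against Caspase-8, the initiator protease of death receptor signalling. Both groups therefore carry a retroviral vector and were grown in the same serum-containing medium. Uninfected cells were not analysed here. No source used here gives the oxygen level in culture, the cell density at harvest, or whether the lines are clones.

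Glycolysis splits glucose into pyruvate in the cytosol, and lactate dehydrogenase turns pyruvate into lactate. Hypoxia-inducible factors (HIFs) are made of an oxygen-labile alpha subunit, encoded by HIF1A or EPAS1, and a stable beta subunit. In the presence of oxygen, prolyl hydroxylases of the EGLN family mark the alpha subunit for destruction by the VHL ubiquitin ligase. When oxygen is short, HIFs bind a core DNA element near genes for glucose uptake, most glycolytic steps, pH control, collagen hydroxylation and mitophagy. Glioblastoma is known for zones of hypoxia and for high lactate output.

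Libraries were named by group and replicate number, and 3 values given for a group always follow the order of replicates 1, 2 and 3. Deposited column sums lay between 489055 and 516634 FPKM, and absolute depth was unknown. Steps among the lowest values placed the other 5 libraries between 1.08 and 1.21 times the depth of shCTR 1. CASP8 was at 15.1, 14.9 and 13.4 FPKM in the controls, against 4.39, 4.46 and 4.44 FPKM with Caspase-8 silenced, with no overlap. All 8 markers fixed for a glioma line of mesenchymal type were present (5294 to 6473 FPKM summed in shCTR and 5426 to 6245 in shC8). Of 6 astrocyte markers 5 had a mean under 1 FPKM, GFAP among them, and the other, SLC1A3, a glutamate transporter gene, fell from 11.9, 11.8 and 8.97 FPKM to 4.75, 6.19 and 4.68 FPKM (change -0.94, limma adjusted p = 0.00779). Of 12 blood, endothelial, epithelial and liver markers 11 had a mean under 1 FPKM, CD68 being the exception. Of the 8 glioma line markers 3 rose and 2 fell, 37.5% and 25%, beside 7.14% and 4.94% of all tested genes. The part of these marker changes in the results was not tested. The series calls the libraries biological replicates without saying whether infections or cultures were separate, so a p-value here covers spread among libraries that may be partly technical. In bulk RNA, a change in the share of cells that express a gene and a change in its level per cell cannot be told apart.

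The last number in each deposited column name is either low or high. Low numbers belong to shC8 1, shCTR 1 and shCTR 3, called the lower range here, high ones to shCTR 2, shC8 2 and shC8 3, the upper range, and their meaning was not stated. These ranges are not balanced over the groups. The lower range holds only shC8 1 from shC8 and the upper range only shCTR 2 from the controls. A difference within a range thus rests on a single library of one group. Because many of the glycolysis and hypoxia genes differed between the ranges, the difference within each range stands beside every gene of the set that was called with or without the replicate block, and differences within same-numbered pairs beside some of them. Libraries of pair 1 both lie in the lower range and libraries of pair 2 both in the upper range, while pair 3 joins shCTR 3 (lower) with shC8 3 (upper).

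Few of the 36 genes passed the test between groups. EGLN3 and P4HA2 were higher in shC8 (limma on log2(FPKM + 1), adjusted p under 0.05 over all genes), none was lower, and 34 did not pass. The background was 7.14% of all tested genes called higher and 4.94% called lower, and the 36 genes had 5.56% called higher. Over all genes the 828 higher and 573 lower calls became 715 and 731 after quantile normalization and 649 and 757 after median-of-ratios scaling, while EGLN3 and P4HA2 stayed called under both. At an unadjusted p under 0.05, 3 were higher and 1 lower (8.33% and 2.78%, beside 18.3% and 11.4% of all genes). The libraries of the 2 groups did not overlap for 4 genes that were higher (GPI, PFKP, EGLN3 and P4HA2) and 2 that were lower (HK2 and EPAS1), against 21.7% and 13.1% of all tested genes. The median change of the 36 genes was 0.22 on the log2 scale, beside 0.04 for all genes tested.

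With the replicate number as a block, a fit that compares libraries within same-numbered pairs, 12 of the 36 genes were called higher and 1 lower. The background in that fit was 16.1% higher and 10.6% lower, and the share of these genes called higher was 33.3%. The 12 were SLC2A1, GPI, PFKL, PFKFB3, PFKFB4, ALDOC, TPI1, PGK1, PGAM1, EGLN3, CA9 and P4HA2, and the fall was EPAS1. In pair 3 the libraries lie in different ranges. When the range was a term in place of the block, 2 genes were higher (EGLN3 and P4HA2) and 0 lower, against a background of 6.32% and 4.41%. With both terms the estimate equals the mean of pairs 1 and 2, and EGLN3, CA9, P4HA2 and ALDOC were called higher and EPAS1 lower, 11.1% and 2.78% of the set. The background in that fit was 9.42% higher and 5.97% lower, so the share called higher was near it.

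**Figure D1:**
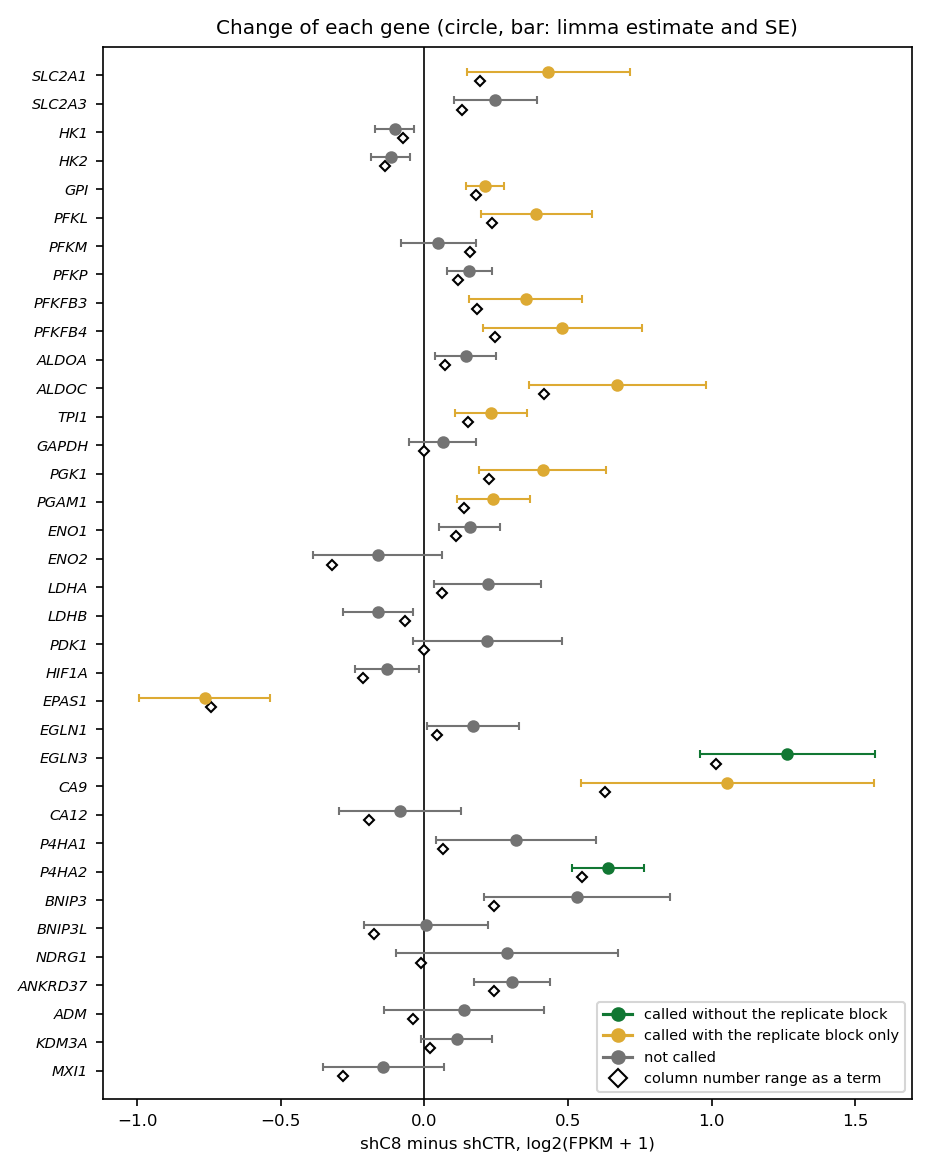
Change of each of the 36 genes, as shC8 minus shCTR on the log2(FPKM + 1) scale. Circles and bars give the limma estimate and its standard error, colours give the call, and open diamonds give the estimate when the range of column numbers entered the fit; only EGLN3 and P4HA2 were called without the block, and 29 of the 36 diamonds lie closer to 0 than their circles.

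The oxygen sensor gene EGLN3 had the largest rise of the 36. It encodes a HIF prolyl hydroxylase that is itself a HIF target, and lies on the minus strand of chromosome 14 (33924231 to 34462774, GRCh38). EGLN3 stood at 0.778, 1.48 and 0.86 FPKM in the controls, against 2.01, 6.37 and 4.13 FPKM with Caspase-8 silenced. Every shC8 library was above every shCTR library, though all levels were low. The group means were 1.04 ± 0.385 and 4.17 ± 2.18 FPKM (SD, n = 3 each), a ratio of 4.01, and the change was 1.26 on the log2(FPKM + 1) scale (SE 0.306, limma adjusted p = 0.0386). With a pseudocount of 0.1 FPKM the change was 1.81. Lower range libraries alone gave 0.72 and upper range libraries alone 1.31. Leaving out any library other than shC8 1 ended the call (limma adjusted p at most 0.119), as did omitting the filter on low values.

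P4HA2 encodes the catalytic subunit of a collagen prolyl 4-hydroxylase, which lets collagen form stable triple helices (minus strand of chromosome 5, 132191838 to 132295315). It stood at 101, 122 and 111 FPKM in the controls, against 148, 205 and 172 FPKM with Caspase-8 silenced. The lowest shC8 library lay above the highest shCTR library. Means were 111 ± 10.5 and 175 ± 28.2 FPKM (SD, n = 3 each), and the log2 change was 0.64 (SE 0.125, limma adjusted p = 0.0201). The difference was 0.55, 0.74 and 0.63 in pairs 1, 2 and 3, and 0.48 among lower range and 0.62 among upper range libraries. Leaving out shC8 3, shCTR 3 or shCTR 1 ended the call (limma adjusted p at most 0.0717), as did omitting the filter on low values. Its paralogue P4HA1 stood at 61.5, 98.6 and 67.8 FPKM in the controls, against 60.8, 128 and 103 FPKM with Caspase-8 silenced, so the groups overlapped and shC8 1 was below every control (limma adjusted p = 0.484).

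EPAS1, the gene for HIF-2 alpha (plus strand of chromosome 2, 46293667 to 46386703), was low in each shC8 library. It stood at 66.5, 51.1 and 36.5 FPKM in the controls, against 31.6, 34.1 and 22.5 FPKM with Caspase-8 silenced. The groups did not overlap, but the controls were spread widely, and shCTR 3 lay close to shC8 2. The log2 change of -0.76 (SE 0.228) did not pass without the block (limma adjusted p = 0.0697) and passed with it (limma adjusted p = 0.00512). The differences were -1.05, -0.57 and -0.67 in pairs 1, 2 and 3, and -0.62 among lower range and -0.86 among upper range libraries. HIF1A, the gene for HIF-1 alpha, was far more abundant, at 334, 426 and 373 FPKM in the controls, against 310, 366 and 357 FPKM with Caspase-8 silenced. Its change was -0.13 (SE 0.11, limma adjusted p = 0.465). EPAS1 made up 16.6%, 10.7% and 8.91% of the summed FPKM of these alpha subunits in the controls, against 9.26%, 8.53% and 5.93% with Caspase-8 silenced, which overlapped. EGLN1, the main oxygen sensor in most cells, did not pass (change 0.17, SE 0.16, limma adjusted p = 0.521). HIF alpha is controlled mainly through protein stability, which was not measured.

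**Figure D2:**
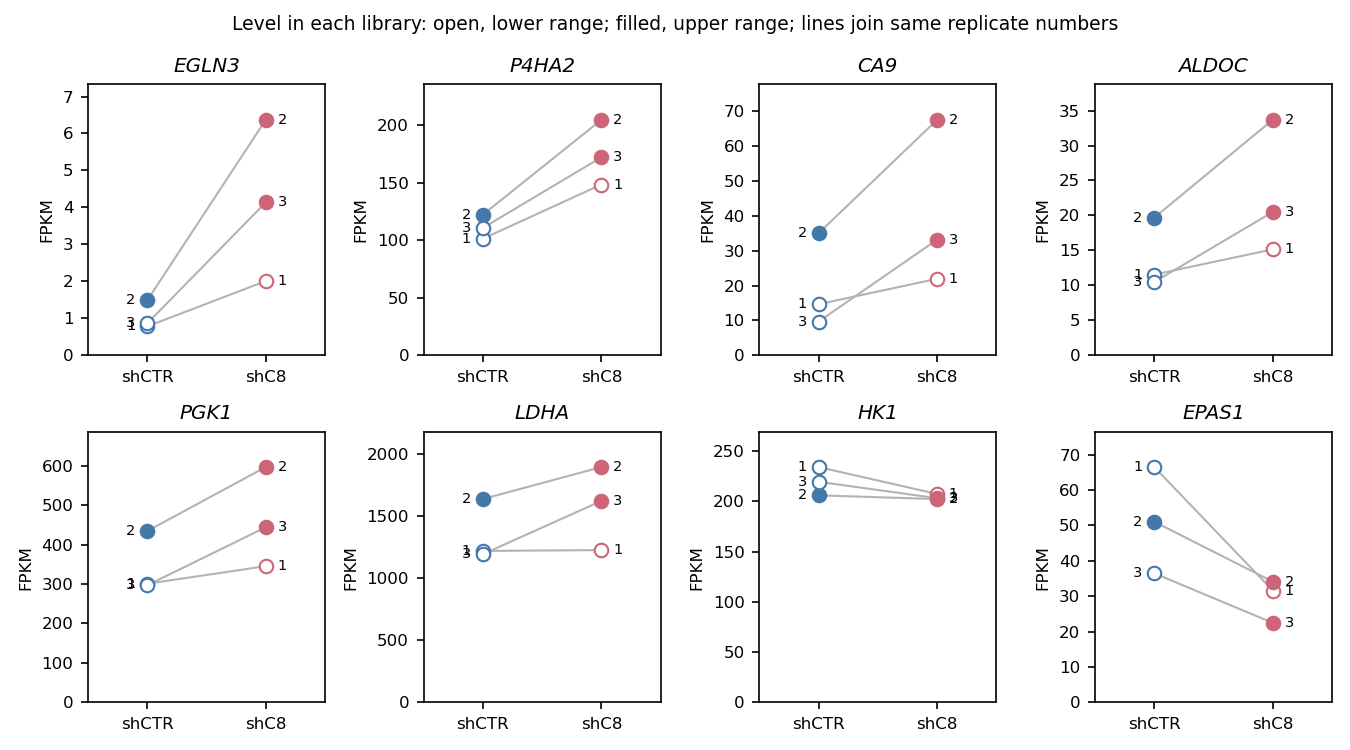
FPKM of 8 genes in each library, with shCTR on the left and shC8 on the right of each panel and a line joining libraries of the same replicate number. Open points belong to the lower and filled points to the upper range of column numbers; EGLN3 and P4HA2 do not overlap between groups, CA9, ALDOC, PGK1 and LDHA are highest in library 2 of each group, and EPAS1 is lower in shC8 in every pair.

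Genes for glucose entry gave no call without the block. SLC2A1 encodes GLUT1, the main basal glucose transporter. It stood at 23.9, 39.1 and 21.2 FPKM in the controls, against 27, 53.4 and 34.8 FPKM with Caspase-8 silenced, so that shCTR 2 exceeded 2 of the 3 shC8 libraries. Its change was 0.43 (SE 0.284, limma adjusted p = 0.351, and 0.0267 with the block), and it was 0.25 among lower range and 0.14 among upper range libraries. For SLC2A3 (GLUT3, the high-affinity neuronal transporter) the change was 0.25 (limma adjusted p = 0.297). HK1 and HK2 encode the hexokinases that trap glucose as glucose 6-phosphate. HK1 lay between 206 and 234 FPKM in shCTR and between 202 and 207 FPKM in shC8, and HK2 between 34 and 35.6 FPKM in shCTR and between 29.4 and 33.1 FPKM in shC8. Both were slightly lower in shC8 in every pair, by up to 0.27 on the log2 scale, and neither passed with or without the block (limma adjusted p = 0.354 and 0.291 without it).

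All 9 genes of upper glycolysis had a positive change, beside 57.9% of all tested genes, and none passed without the block. GPI, which interconverts glucose and fructose 6-phosphate, stood at 83.4, 85.8 and 81.9 FPKM in the controls, against 91.3, 103 and 96.7 FPKM with Caspase-8 silenced. These groups did not overlap (change 0.21, SE 0.0663, limma adjusted p = 0.0795, and 0.0284 with the block), and the difference was 0.14 among lower range and 0.22 among upper range libraries. ALDOC, the brain aldolase, stood at 11.5, 19.7 and 10.5 FPKM in the controls, against 15.1, 33.7 and 20.5 FPKM with Caspase-8 silenced. It was higher in shC8 in each pair, by 0.37, 0.75 and 0.91, but shCTR 2 was above shC8 1. The change was 0.67 (SE 0.309, limma adjusted p = 0.194, and 0.00886 with the block), and it was 0.43 among lower range and 0.40 among upper range libraries. ALDOA, the aldolase of most tissues, lay between 855 and 1023 FPKM in shCTR and between 931 and 1118 FPKM in shC8.

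Phosphofructokinase commits sugar to glycolysis, and none of its 3 subunit genes passed without the block. PFKP, the platelet-type subunit, was the most abundant at 167 to 188 FPKM in shCTR and 189 to 212 FPKM in shC8, with a change of 0.16 (limma adjusted p = 0.226). PFKL, the liver-type subunit, had a change of 0.39 (limma adjusted p = 0.226, and 0.0207 with the block), which was 0.18 among lower range and 0.29 among upper range libraries. PFKM, the muscle-type subunit, was lowest in the upper range libraries of either group, at 29.8 FPKM in shCTR 2 and 30.3 FPKM in shC8 2, with a change of 0.05 (limma adjusted p = 0.842). PFKFB3 and PFKFB4 make fructose 2,6-bisphosphate, the activator of phosphofructokinase. Their changes were 0.35 and 0.48 (limma adjusted p = 0.273 and 0.289, and 0.0405 and 0.0283 with the block). Lower range libraries alone gave 0.12 for PFKFB3 and 0.25 for PFKFB4, and upper range libraries alone gave 0.25 for each. TPI1, which interconverts the triose phosphates, had a nearly equal difference in pairs 1, 2 and 3 (0.24, 0.22 and 0.24), and 0.23 among lower range but 0.08 among upper range libraries. Its change of 0.23 passed with the block (limma adjusted p = 0.0188) and not without it (limma adjusted p = 0.258).

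Lower glycolysis was dominated by abundant transcripts with small differences. GAPDH, which oxidises glyceraldehyde 3-phosphate, lay between 3148 and 3817 FPKM in shCTR and between 3341 and 3771 FPKM in shC8, with a change of 0.06 (SE 0.115, limma adjusted p = 0.754). Its shC8 minus shCTR difference was positive in pairs 1 and 3 and -0.02 in pair 2. PGK1, the first ATP-yielding kinase of the pathway, stood at 301, 434 and 297 FPKM in the controls, against 345, 596 and 444 FPKM with Caspase-8 silenced. Libraries numbered 2 were the highest of each group, and shCTR 2 exceeded shC8 1. The change was 0.41 (SE 0.22, limma adjusted p = 0.255, and 0.0166 with the block), and 0.21 among lower range and 0.24 among upper range libraries. PGAM1, phosphoglycerate mutase, had a change of 0.24 (limma adjusted p = 0.252, and 0.0443 with the block), which was 0.10 among lower range and 0.18 among upper range libraries. ENO1, the general enolase, had a change of 0.16 and ENO2, the neuronal enolase, one of -0.16, with neither passing. PKM, the pyruvate kinase gene (PKM2 in the table), is no member of the set and lay at 2490 ± 158 FPKM in the controls against 2772 ± 258 FPKM (SD, n = 3 each, limma adjusted p = 0.389).

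At the pyruvate branch no gene passed with or without the block. LDHA, the lactate dehydrogenase subunit that HIF induces, stood at 1222, 1641 and 1196 FPKM in the controls, against 1229, 1899 and 1625 FPKM with Caspase-8 silenced. In pair 1 the difference was 0.01, in pair 2 it was 0.21 and in pair 3 it was 0.44 (limma adjusted p = 0.47). LDHB, the heart-type subunit, was lowest where LDHA was highest, at 456, 402 and 452 FPKM in the controls, against 466, 341 and 374 FPKM with Caspase-8 silenced. LDHB made up 27.2%, 19.7% and 27.4% of lactate dehydrogenase FPKM in the controls, against 27.5%, 15.2% and 18.7% with Caspase-8 silenced. Its share was thus between 27.2% and 27.5% in all 3 libraries of the lower range and under 20% in those of the upper range. Within the upper range the shC8 shares, 15.2% and 18.7%, lay below the 19.7% of shCTR 2, the only control there. PDK1, a kinase that inhibits pyruvate dehydrogenase, had a change of 0.22 (limma adjusted p = 0.607). That change was -0.00122 when the range entered the fit (limma adjusted p = 0.996).

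CA9 encodes carbonic anhydrase IX, a surface enzyme of pH control and a classical marker of hypoxic tumour cells (plus strand of chromosome 9, 35673856 to 35681159). CA9 stood at 14.6, 35 and 9.65 FPKM in the controls, against 21.9, 67.6 and 33.2 FPKM with Caspase-8 silenced. It was higher in shC8 in every pair, 1.5-fold, 1.93-fold and 3.44-fold, yet shCTR 2 was above 2 of the 3 shC8 libraries. The change was 1.05 (SE 0.51, limma adjusted p = 0.213), and the limma adjusted p was 0.0157 with the block and 0.00657 with block and range together. The last fit takes its spread from pairs 1 and 2 alone, with the spread that limma borrows from other genes. Its smaller p is therefore not stronger evidence. The difference was 0.83 among lower range and 0.43 among upper range libraries, and 0.63 when the range was a term. With 1 library left out the change lay between 0.62 (without shC8 2) and 1.55 (without shCTR 2). Between ranges CA9 differed by 1.28 on the log2 scale (SE 0.286, with the group as a term). CA12, carbonic anhydrase XII, did not pass (change -0.09, SE 0.212, limma adjusted p = 0.826).

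Other HIF targets did not pass in either fit. BNIP3, a mitophagy receptor gene, stood at 161, 256 and 129 FPKM in the controls, against 166, 364 and 266 FPKM with Caspase-8 silenced. Its difference was 0.05 in pair 1, 0.51 in pair 2 and 1.04 in pair 3 (limma adjusted p = 0.317, and 0.0714 with the block). BNIP3L, its paralogue, had a change of 0.01 (limma adjusted p = 0.991). NDRG1, a stress-induced gene that HIF activates, stood at 82.5, 126 and 59.2 FPKM in the controls, against 66.6, 181 and 93.3 FPKM with Caspase-8 silenced, so it was lower in shC8 in pair 1 and higher in pairs 2 and 3. ADM, the gene for the vasodilator peptide adrenomedullin, KDM3A, a histone H3 lysine 9 demethylase gene, MXI1, a MYC antagonist gene, and ANKRD37 had changes of 0.14, 0.11, -0.14 and 0.31. ANKRD37 was at 2.44 FPKM or less in every library.

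**Figure D3:**
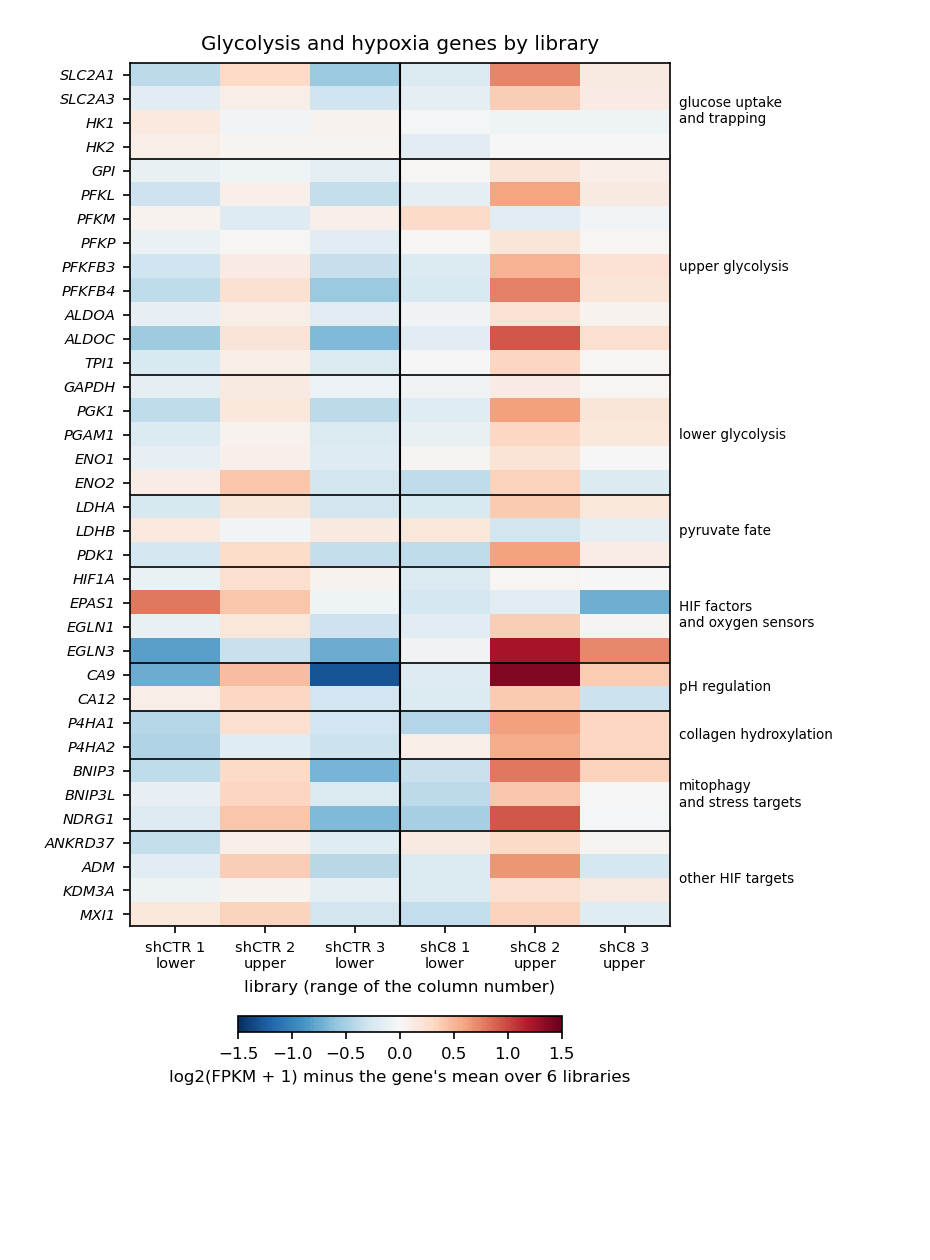
Level of each of the 36 genes in each library, as log2(FPKM + 1) minus the gene's own mean over the 6 libraries (red higher, blue lower), ordered by role; the range of the column number stands under each library. In 31 of 36 rows shCTR 2 is the highest control and in 32 of 36 shC8 2 is the highest shC8 library.

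The libraries numbered 2 stood out for most of the set. In 31 of the 36 genes shCTR 2 was the highest of the 3 controls, and in 32 shC8 2 was the highest of the 3 shC8 libraries. In the same 31 genes both libraries numbered 2 were the highest of their group, 86.1% of the set, beside 15% of all tested genes. Library shC8 1 was the lowest of its group for 28 of the 36, 77.8%, beside 31.5% of all tested genes. Together the 36 genes took up 1.99%, 2.42% and 2.00% of all FPKM in the controls, against 2.03%, 2.70% and 2.35% with Caspase-8 silenced. The median of the 15 hypoxia response genes stood 0.29 above their own mean in shCTR 2 and 0.41 above it in shC8 2 on the log2 scale, and at -0.16, -0.29 and -0.21 relative to it in shCTR 1, shCTR 3 and shC8 1. In shC8 3 it was 0.04 above. The same median over all tested genes stayed within 0.05 of 0 in each library.

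Between the ranges of column numbers, with the group as a term, no gene of the 11598 passed at an adjusted p under 0.05 (limma). At an unadjusted p under 0.05, 24 of the 36 genes were higher and 2 lower in the upper range, beside 5.26% and 6.93% of all tested genes. The pair lower in the upper range were PFKM (-0.33) and LDHB (-0.28). The median difference over the set was 0.36, and -0.02 over all tested genes. The lowest unadjusted p values belonged to P4HA1 (0.000292, difference 0.75) and BNIP3 (0.000544, difference 0.87). Of 10 transcripts listed as signs of RNA quality 4 were in the table, with sums of 17664 to 25169 FPKM in shCTR and 23371 to 26558 FPKM in shC8. Among them MALAT1 was at 454, 563 and 475 FPKM in the controls, against 290, 700 and 677 FPKM with Caspase-8 silenced, where the libraries numbered 2 were the highest of their group and shC8 1 the lowest of all, as for NEAT1. For RMRP shC8 1 was instead the highest shC8 library, at 15859 FPKM against 13488 and 15147. The median difference of these 4 between the ranges was 0.53. The part of RNA quality in these differences was not tested.

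**Figure D4:**
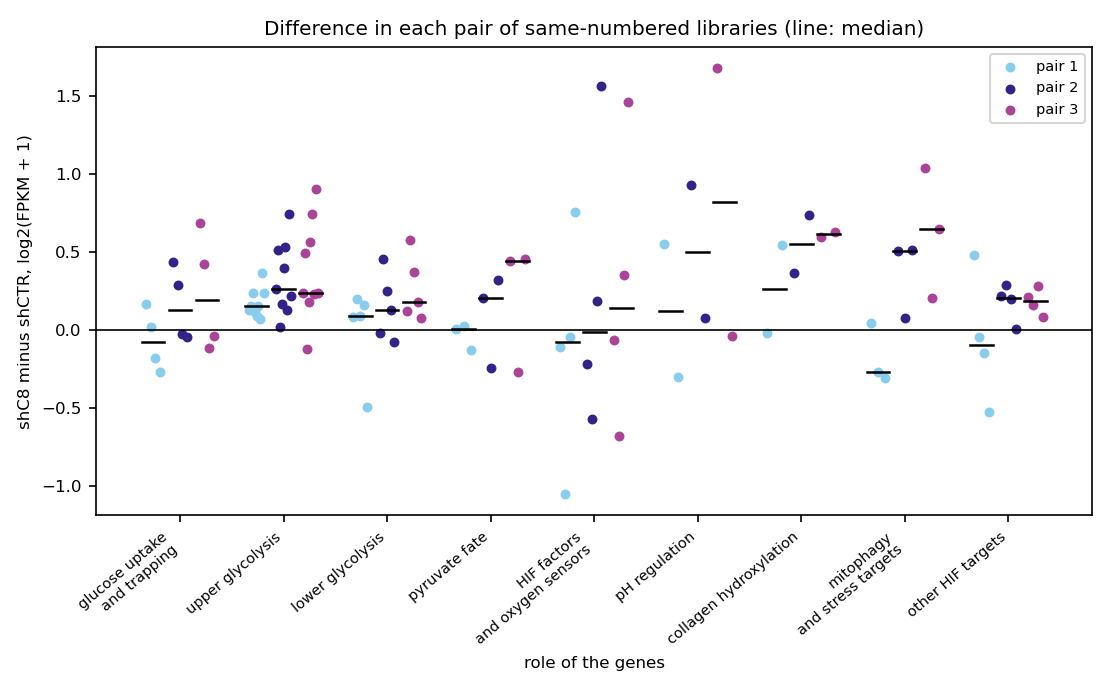
Difference between shC8 and shCTR for each gene in pair 1 (both lower range), pair 2 (both upper range) and pair 3 (lower against upper range), by role, on the log2(FPKM + 1) scale; black lines are medians. Over all 36 genes the medians were 0.06, 0.22 and 0.26, and those of the mitophagy and stress targets were -0.27 in pair 1 and 0.65 in pair 3.

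Pair by pair, the median difference of the 36 genes was 0.06, 0.22 and 0.26 in pairs 1, 2 and 3, beside 0.06, 0.03 and 0.02 for all tested genes. The difference was highest in pair 3 for 25 of the 36 genes, and lowest in pair 1 for 29 of the 36. Among all tested genes these shares were only 26% and 29.3%, so both patterns were more common in the set. The 21 genes of uptake, glycolysis and pyruvate use had a positive difference in 17, 16 and 17 cases in pairs 1, 2 and 3. The 15 hypoxia response genes did so in 5, 13 and 12 cases, beside 60.1%, 55% and 53.8% of all tested genes. In pair 1 their median was -0.04, and 14 of the 19 genes higher in shC8 in all pairs belonged to uptake, glycolysis and pyruvate use. These 19 were 52.8% of the set, beside 36.3% of all tested genes. Within the lower range the median of the 36 was 0.10 and within the upper range 0.09, less than the 0.22 obtained over all libraries. For all tested genes the medians within the lower and upper range were 0.06 and 0.03.

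Shares within pairs or trios of related genes do not depend on the scaling of a library, and 14 such shares over 12 enzyme or gene families were compared (exact two-sided permutation tests over libraries, which cannot go below 0.1 with 3 against 3). For 2 shares the groups did not overlap. EGLN3 made up 3.76%, 5.7% and 4.75% of EGLN1 and EGLN3 FPKM in the controls, against 9.41%, 18.5% and 15.6% with Caspase-8 silenced. BNIP3 made up 57.8%, 61.4% and 53.8% of BNIP3 and BNIP3L FPKM in the controls, against 63.1%, 68.2% and 67.6% with Caspase-8 silenced. Both had an exact p of 0.1, and 0.35 after Benjamini-Hochberg adjustment over the 14 shares. CA9 had less FPKM than CA12 in every library, with 20.3%, 34.4% and 18.1% of their sum in the controls, against 32.1%, 48.9% and 43.7% with Caspase-8 silenced, which overlapped (exact p = 0.2, adjusted 0.35). HK2 made up 12.4% to 14.2% of HK1 and HK2 FPKM in every library. The shares of HK2, PFKL, PFKM, ALDOC, LDHB, SLC2A1 and CA9 did not overlap between the lower and the upper range.

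**Figure D5:**
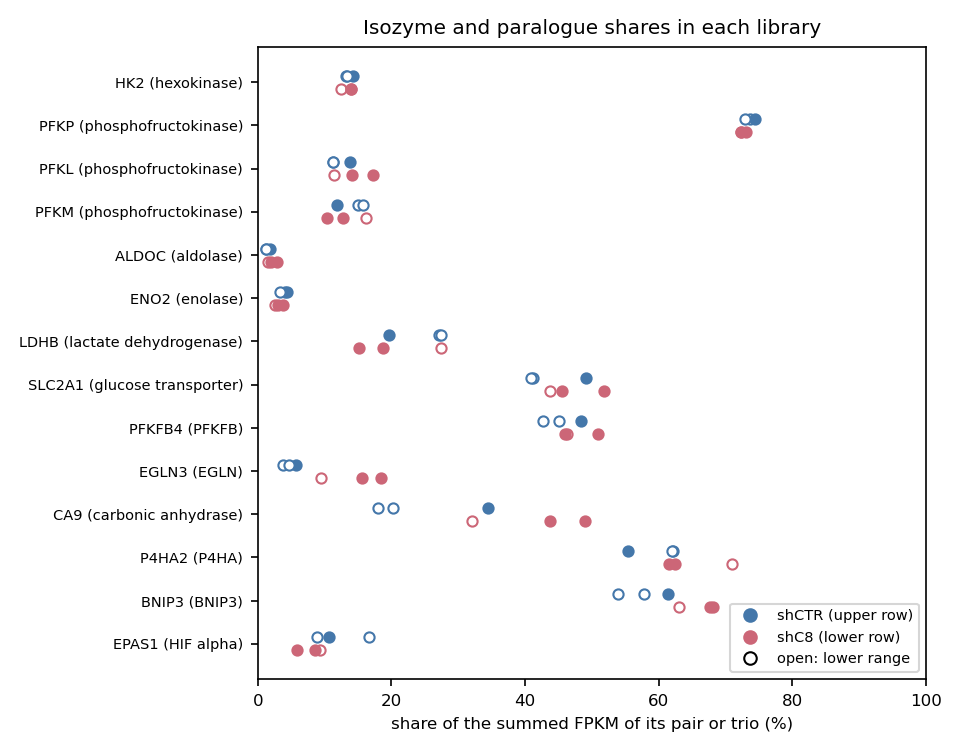
Share of the named gene in the summed FPKM of its family in each library, in percent, with shCTR above and shC8 below each tick and open points for the lower range of column numbers. EGLN3 and BNIP3 shares do not overlap between groups. LDHB shares separate by range, as do those of HK2, PFKL, PFKM, ALDOC, SLC2A1 and CA9.

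Core letters of the hypoxia response element were looked up in RefSeq promoter windows of GRCh38.p14, each from 250 bases before to 50 after a gene's start. ACGTG and GCGTG were searched on both strands, so that the palindrome CACGTG counts on each. Of the 36 genes 33 had a window (SLC2A3, BNIP3L and NDRG1 did not), and 30 of these, 90.9%, held a match in at least 1 window, beside 52.4% of all genes with a window. ACGTG was found for 19 of the 33, 57.6%, beside 24.9% of all. Per window, 67.8% of 59 windows and 48.4% of all 35116 windows held a match, and median GC content was 69% and 58.7%, so the windows are not matched in base composition. The genes without any match were EGLN3, P4HA2 and PGAM1, and EGLN3 and P4HA2 are those called without the block. EGLN3, P4HA2 and PGAM1 had 1 window each, and outside the windows no match was looked for. Such matches are letters and not binding sites, and binding was not measured. The lines give 1 match (in capitals) for some genes described above that were called or swung widely between libraries. Each runs 5′ to 3′ on the gene's strand and ends before the start site. No line is printed for PFKL, PFKFB3 and TPI1, which were called with the block and also hold upstream matches.
CA9, chr9:35673898-35673926, plus strand: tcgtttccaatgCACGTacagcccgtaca
ALDOC, chr17:28576907-28576935, minus strand: ccccggaggagtCACGTagctctgcgaca
PGK1, chrX:78104053-78104081, plus strand: aaacggaagccgCACGTctcactagtacc
GPI, chr19:34364818-34364846, plus strand: acactgcctgtaACGTGgaaggtgttcga
BNIP3, chr10:131982040-131982068, minus strand: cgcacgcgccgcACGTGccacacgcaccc
P4HA1, chr10:73096936-73096964, minus strand: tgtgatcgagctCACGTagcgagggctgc
PFKFB4, chr3:48556953-48556981, minus strand: tgagttgggcatGCGTGgtcggaggccgg
EPAS1, chr2:46297278-46297306, plus strand: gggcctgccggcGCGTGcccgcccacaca
The matches begin at positions -18, -28, -183, -162, -133, -86, -166 and -117 from the start, in the order of the lines, where the base before the start is -1. In these lines CA9 and ALDOC, which had the largest blocked rises after EGLN3, carry ACGTG on the opposite strand close to the start. EPAS1, the one fall, and PFKFB4, a blocked rise, show the GCGTG form. SLC2A1 and PFKL, also blocked rises, had no ACGTG in their windows, and ALDOC holds GCGTG too. The form of the match thus did not separate rises from the fall.

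Genes outside the set but on the same pathways were read from lists. The background of all tested genes was 7.14% higher and 4.94% lower without the block, and 16.1% and 10.6% with it. Among 15 tested regulators of HIF, VHL, which targets HIF alpha for destruction, fell. It stood at 14.8, 13.5 and 12.1 FPKM in the controls, against 8.66, 9.38 and 9.28 FPKM with Caspase-8 silenced, without overlap (change -0.51, SE 0.0844, limma adjusted p = 0.0119). OS9, a gene for a lectin of endoplasmic reticulum quality control, rose by 0.38 and SIAH2, a ubiquitin ligase gene acting on EGLN proteins, by 0.36 (limma adjusted p = 0.0112 and 0.0485). The other 12 did not pass, and with the block 3 of the 15 rose and 2 fell. The SIAH2 call ended without any library except shCTR 2 and when the range was a term, while VHL and OS9 were called without each library in turn. Of 37 further HIF targets, 1 rose, the histone demethylase gene KDM4B (by 0.50), and 2 fell, among them VLDLR (change -0.67), a lipoprotein receptor gene. With 1 library left out KDM4B stayed called only without shC8 1 and VLDLR only without shCTR 3 or shC8 2. With the block 11 of the 37 rose and 4 fell (29.7% and 10.8%). Their median change was 0.20, and 0.07 once the range was a term. These targets were also highest in the libraries numbered 2, shCTR 2 in 32 and shC8 2 in 33 of the 37. Those are 86.5% and 89.2%, beside 29.6% and 27.1% of all tested genes.

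Of 13 genes for pyruvate entry into mitochondria and its oxidation, 3 fell and none rose, and with the block 5 fell and 1 rose. MPC2, a subunit of the mitochondrial pyruvate carrier (BRP44 in the table), stood at 29.3, 30.7 and 30.8 FPKM in the controls, against 16.5, 16.7 and 17.5 FPKM with Caspase-8 silenced. Replicates were tight and the groups far apart (change -0.80, SE 0.059, limma adjusted p = 0.00101). DLD, the dihydrolipoamide dehydrogenase shared by pyruvate and oxoglutarate dehydrogenase, fell from 66.2 ± 2.97 to 43.6 ± 1.42 FPKM (SD, n = 3 each; change -0.59, limma adjusted p = 0.00275), and PDHB, a pyruvate dehydrogenase subunit, changed by -0.34 (limma adjusted p = 0.0354). MPC2 and DLD were called without each library in turn, and with 1 left out PDHB stayed called only without shC8 1. The other 10 genes of this list did not pass, and its median change was -0.08. BPGM, which diverts 1,3-bisphosphoglycerate, rose from 29.1 ± 1.47 to 40.8 ± 0.863 FPKM (SD, n = 3 each; change 0.47, limma adjusted p = 0.00557). With BPGM, the glucose transporter gene SLC2A8, the pyruvate carboxylase gene PC and the ADP-dependent glucokinase gene ADPGK rose, 4 of 13 tested other enzymes and transporters of sugar metabolism, and none fell. BPGM was called without each library in turn, SLC2A8 without each except shC8 3, while with 1 left out PC stayed called only without shCTR 2 and ADPGK in none of these 6 fits, and with the range as a term the calls of PC and ADPGK ended. Among 7 pentose phosphate genes RPIA, ribose 5-phosphate isomerase, fell (change -0.43, limma adjusted p = 0.036; with 1 library left out it stayed called only without shCTR 2, and it was not called with the range as a term), and of 20 citrate cycle genes none passed without the block (1 higher and 2 lower at an unadjusted p under 0.05) and 1 rose and 3 fell with it. Of 11 regulators of growth and glycolysis 1 rose and 1 fell, the fall being MAX, the MYC partner gene (change -0.30; with 1 library left out it stayed called only without shC8 1), and with the block 3 rose and 1 fell.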

How the data were processed

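Per the labels' protocols, 6 U87 libraries came from total RNA with ribosomal RNA removed, using a stranded kit. FPKM values per gene symbol and library were used as the authors deposited them. Per the submitters' processing notes, TopHat, Cufflinks and Cuffdiff were used with hg38; no version is listed. No source used here gives the annotation or the use of strand in counting. In GENCODE 29, 17 of the 36 genes have exons overlapping a gene on the opposite strand (P4HA2 and CA9 among them) and 14 have pseudogenes named after them, so their reads could be shared.

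The moderated test of limma (trend on the mean, two-sided) was run on log2(FPKM + 1) for genes averaging 1 FPKM or more (Benjamini-Hochberg over 11598 genes, called under 0.05). Folds on this scale understate changes of low genes. Deviations from group means correlated at 0.397, 0.266 and 0.291 between same-numbered libraries, so the numbers were taken as pairs, from the data. Between libraries of different numbers these correlations lay between -0.32 and 0.0378. As the pairs were read from the values then tested, p-values with the block may be too small. Alternatives were another pseudocount (0.1), no filter, a minimum mean of 5 FPKM, quantile and median-of-ratios scaling, the block, no trend, the range term and each library left out. The fit with block and range together, and the comparison of the ranges, were added after seeing the data.

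The 36 genes and the lists were chosen with earlier results of these data known. Named genes were the 36, CASP8, and per other list up to 3 called genes of largest change, or from marker lists up to 3 of highest FPKM. PKM, GFAP, ADPGK and NEAT1 were named after their values were seen. The plan counted 12 isozyme shares, 1 per family; phosphofructokinase has 3, so 14 were computed. Some genes were found under an older symbol. Some genes that the naming rule picks are not reported here. R 4.3.3, limma 3.58.1 and Python 3.11.15 were used, and the fit was tested on simulated data.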

Additional observations from a re-analysis of the deposited data

How the results depend on the processing

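The count of genes called over the whole table, 1401, was 3086 with the replicate block and between 477 (without shC8 3) and 1346 (without shC8 1) with 1 library left out; it moved by over 1.5 times without any library except shC8 1. The count of the 36 genes called higher, 2, was 0 when low genes were not filtered, 1 when genes under a mean of 5 FPKM were dropped (EGLN3 not tested), 12 with the replicate block, 4 with the block and the column number range (11.1%, beside 9.42% of all genes), and between 0 (without shCTR 1, shCTR 3 or shC8 3) and 3 (without shC8 1) with 1 library left out. The count called lower, 0, was 1 with the replicate block, 1 with the block and the range, and between 0 and 1 with 1 library left out (EPAS1 without shCTR 3). The median change of the 36, 0.22, was 0.0914 once the range was a term and between 0.0924 (without shC8 2) and 0.334 (without shCTR 2) with 1 library left out. The cause of these shifts was not tested, except that a higher filter removes genes and a left-out library leaves 5 samples. CASP8 was called under each alternative run, with changes between -1.68 and -1.48. Median-of-ratios scaling moved the median of all genes from 0.04 to 0.00 and left EGLN3 and P4HA2 called. Over the 36 genes and 15 alternatives, 512 values stayed on their side of the threshold, 16 passed it newly, 10 lost the call, and none reversed. The replicate block changed the calls named in the report and no other call of the 36. FPKM gives no counts, so the precision of low genes such as EGLN3 and ANKRD37 is unknown.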
